A study of Mus musculus with 2 samples.

Results

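The IL-1 family members of bone marrow stromal cells were compared between PPARg-deficient and PPARg-floxed cells. The group holds 10 genes, taken as a fixed list: the ligand genes Il33, Il1a, Il1b and Il18, the antagonist gene Il1rn, the receptor genes Il1rl1, Il1r1, Il1rl2 and Il1rap, and the adaptor gene Myd88. All 10 were found among 19207 named genes. Il1rl1 encodes ST2, the receptor for IL-33. The members were chosen by family, with the FPKM of Il1rl1 in these 2 libraries already known to differ, so their values are a description and carry no test.

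The cells were mesenchymal stem/progenitor cells of bone marrow from 3-month-old CD-1 mice, cultured in DMEM with serum. There were 2 libraries. The PPARg-floxed library came from cells with floxed Pparg alleles (genotype label PPAR-flox), and the PPARg-deficient library from cells labelled PPAR KO. The labels do not name a Cre driver, the floxed exons or the number of animals behind a library. With 1 library per group no difference has a replicate check, and no p-value or standard error was computed.

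IL-1 family cytokines signal through paired receptor chains. A ligand binds its own chain (IL-1R1 for IL-1, ST2 for IL-33, IL-36R for IL-36), the shared chain IL-1RAcP, encoded by Il1rap, is recruited, and the TIR domains of the pair bring in MYD88, IRAK kinases and TRAF6 to activate NF-kB and MAP kinases. The system holds many brakes: the antagonist IL-1RA, encoded by Il1rn, occupies IL-1R1 without signalling, and shortened soluble forms of ST2 and IL-1RAcP bind ligand or receptor outside the cell. Stromal cells and fibroblasts are known as targets of IL-1 and as sources of IL-33 and soluble ST2.

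Which protein form a transcript encodes is set in 3 of these genes by a start site or an alternative last exon, and the values below turn on those forms. The stretches shown are reference coding sequence of GENCODE M21 transcripts (build GRCm38), chosen because they are where the forms part. In the first 4 lines the 30 lower-case bases are the last coding bases that both forms of a gene share, and the capitals are the bases that follow in that form alone, through the stop codon in the soluble forms and for 36 bases in the membrane forms.
Il1rl1 soluble form (337 residues): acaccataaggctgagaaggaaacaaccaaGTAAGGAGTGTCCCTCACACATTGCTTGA
Il1rl1 membrane form (567 residues): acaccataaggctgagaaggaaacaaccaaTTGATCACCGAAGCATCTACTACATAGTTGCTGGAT
Il1rap soluble form (360 residues): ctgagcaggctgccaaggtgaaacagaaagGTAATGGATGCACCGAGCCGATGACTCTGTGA
Il1rap membrane form (570 residues): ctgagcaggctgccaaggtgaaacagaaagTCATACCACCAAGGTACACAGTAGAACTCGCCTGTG
In both genes the soluble form reads past the splice donor that the membrane form uses: its own part begins with the bases GT and adds 29 coding bases in Il1rl1 and 32 in Il1rap, stop codon included. The membrane forms go on for 719 and 662 coding bases of their own, which encode the membrane-spanning part and the TIR domain.

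Il1rn differs at the other end. The capitals below are the coding bases of each form from its ATG to the point where the 3 forms join, and the lower-case bases are the first 30 that they share.
Il1rn intracellular form (159 residues): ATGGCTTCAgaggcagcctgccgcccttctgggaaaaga
Il1rn form of 162 residues: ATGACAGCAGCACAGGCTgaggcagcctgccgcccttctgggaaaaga
Il1rn secreted form (178 residues): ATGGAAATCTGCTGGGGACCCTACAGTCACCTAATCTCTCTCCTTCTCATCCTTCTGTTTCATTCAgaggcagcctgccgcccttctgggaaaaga
The secreted form has 66 coding bases of its own, which encode most of the signal peptide, against 9 in the intracellular form and 18 in the form of 162 residues. The other 471 coding bases, stop codon included, are common to the 3 forms.

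Values are FPKM, a fragment abundance scaled for transcript length and library size, summed over the transcripts of a gene. A gene was kept for comparison when it reached 1 FPKM in at least 1 library. Log2 folds compare the deficient with the floxed library after 1 FPKM was added to each value, so those of low genes are too small. The deposited files also hold a lower and an upper bound for each transcript, which describe the estimate within 1 library. The aligned bases summed to 1383 megabases in the floxed and 1728 megabases in the deficient library. Summed FPKM was 1.65e+06 and 3.71e+06, of which transcripts under 300 nt held 61.6% and 81.7%. At or over 1 FPKM were 8884 loci in the floxed and 10881 in the deficient library. Pparg itself was at 6.86 FPKM in the floxed and 1.39 FPKM in the deficient library. The log2 fold of the median kept locus was 0.86, or 1.81-fold in favour of the deficient library. A relative log2 fold, with that median subtracted, is given beside each deposited one.

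Of the 10 members 6 were kept: Il1rl1, Il1r1, Il1rap, Il1rn, Il18 and Myd88. As deposited, 1 of the 6 was higher by 2-fold or more in the deficient library and 0 were lower by as much, where 41.9% and 4.66% of 10722 kept loci were. Relative to the median locus 1 was higher by that margin (Il1rl1) and 2 were lower (Il18 and Il1rap), where 10.3% and 11.7% of kept loci were. The median member lay at 0.57 on the log2 scale, against 0.86 for all kept loci. Il33 and Il1rl2 stayed under 1 FPKM in both libraries, and Il1a and Il1b were listed at 0 in both.

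**Figure D1:**
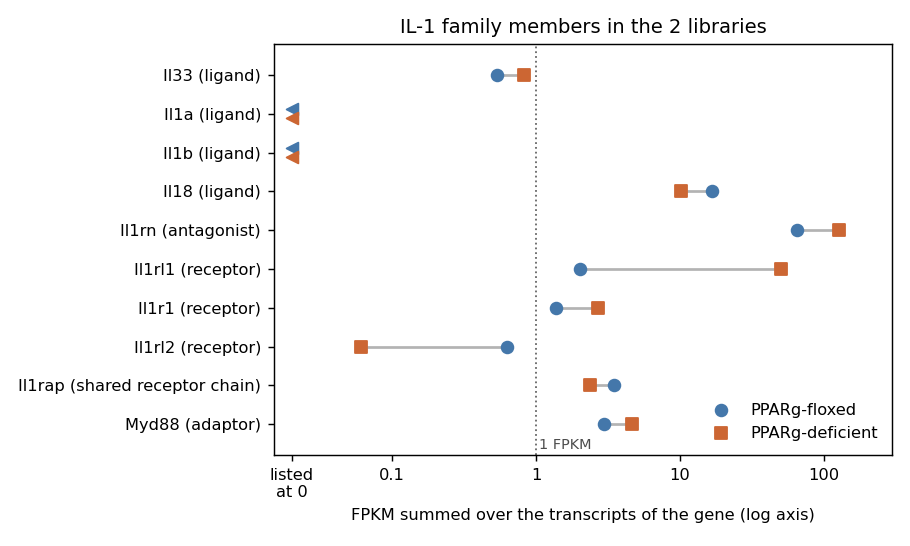
FPKM per gene (log axis) of the 10 members in the PPARg-floxed (circles) and PPARg-deficient (squares) libraries, with a line joining the 2 values of a gene and triangles for genes listed at 0. Il1rl1 spans the widest gap among the kept members, from 2.02 to 50.01 FPKM, and Il1rn is the most abundant member in both libraries.

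Among the kept members Il1rl1 had the largest log2 fold. It lies on the plus strand of chromosome 1 from 40496494 to 40522259 (mm9) with 3 listed transcripts. Its level was 2.02 FPKM in floxed cells and 50.01 FPKM in deficient cells, 24.8-fold higher, with a log2 fold of 4.08 and a relative log2 fold of 3.22. Of 10722 kept loci, 32 had a higher fold. The gene moved from rank 6308 by FPKM among kept loci in the floxed library to rank 1768 in the deficient library. The reads behind these values covered 11.1 kb and 263.9 kb in all. In these bulk libraries a change in RNA per cell cannot be told apart from a change in the number of cells that express the gene.

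Most of the Il1rl1 signal lay in the soluble form in both libraries. The transcript of 8 exons and 3002 nt that encodes soluble ST2 was at 1.81 FPKM in floxed cells (bounds 1.27 to 2.36) and at 46.1 FPKM in the deficient library (43.4 to 48.8). These bounds lie far apart, and the ratio was 25.5. The soluble form made up 89.8% of the gene's FPKM in the floxed and 92.2% in the deficient library, so its share was nearly the same on both sides while the level differed.

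The membrane form, ST2L, was the minor product. Its transcript of 11 exons, which starts at the same base as the soluble form, was at about 0 in the floxed library (upper bound 0.0435 FPKM) and at 3.87 FPKM in the deficient library (3.23 to 4.51). A transcript of 10 exons that starts 979 nt further on, and encodes the same 567 residues, was at 0.206 FPKM (0.0551 to 0.356) and 0.0134 FPKM (0 to 0.0847). Together the membrane transcripts held 0.206 FPKM in the floxed and 3.88 FPKM in the deficient library, 18.9-fold higher. That ratio starts from a floxed value under 1 FPKM and is uncertain. The log2 fold of the membrane transcripts was 2.02 (relative 1.16), against 4.07 (relative 3.21) for the soluble form. The soluble form exceeded the membrane transcripts 8.81-fold in the floxed library and 11.9-fold in the deficient library. The 2 forms can be told apart over 1687 nt that only the soluble transcript holds and 3964 nt that only the membrane transcripts hold, most of them in the last exons. The files give 1 value per transcript and none per exon, so reads over the last exons alone could not be read.

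**Figure D2:**
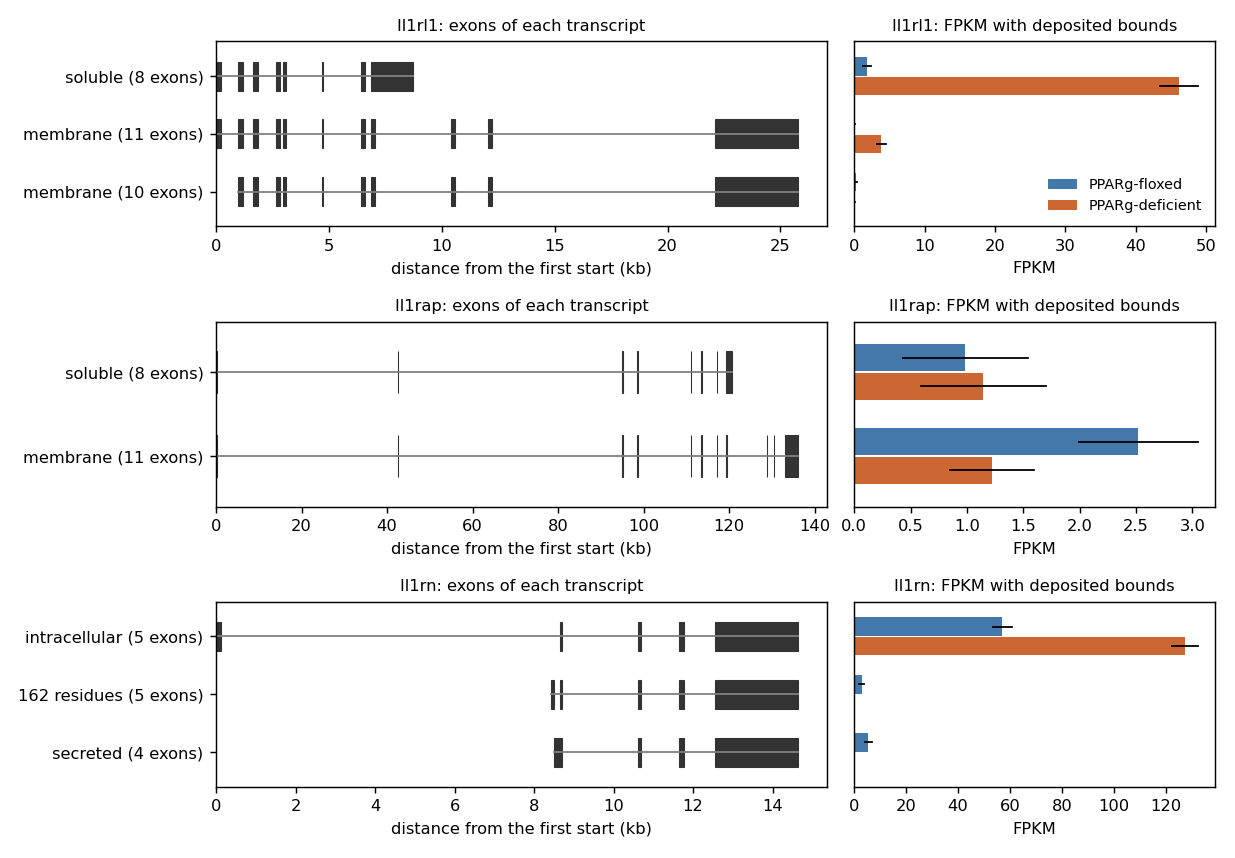
Left, exons (boxes) and introns (lines) of each transcript with at least 0.1 FPKM in a library, by distance from the first start of the gene in kb; right, its FPKM in the floxed and deficient libraries, with black lines for the deposited lower and upper bounds. The soluble Il1rl1 transcript stands at 46.1 FPKM in the deficient library, the Il1rap membrane transcript is lower there, and the Il1rn transcripts from the downstream starts show signal in the floxed library alone.

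Of the 2 deposited Il1rl1 starts, the upstream one matches the proximal of 2 RefSeq starts of the gene. Its first exon of 208 nt ends at the same splice donor as the exon that begins at the proximal RefSeq start, which is 228 nt long. The other deposited start, that of the transcript of 10 exons, lies at the first base of the next exon and matches neither RefSeq start. A distal start is also annotated in RefSeq, and a transcript from it was not analysed here. As background, the proximal promoter is the one described for fibroblasts, and the distal one for mast cells and other blood cells. The 250 bases before the proximal start are shown because the soluble transcript, which holds most of the gene's signal, begins just after it. They lie at chr1:40439379-40439628 of GRCm38.p6 on the plus strand, and the capitals mark the motif match.
Il1rl1 proximal promoter: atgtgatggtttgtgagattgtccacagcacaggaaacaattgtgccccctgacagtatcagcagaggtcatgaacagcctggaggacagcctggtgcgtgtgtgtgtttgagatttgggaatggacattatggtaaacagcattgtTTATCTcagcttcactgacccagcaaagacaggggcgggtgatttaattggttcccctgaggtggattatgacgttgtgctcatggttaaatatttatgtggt
Both strands of this window were searched for 5 motifs, and no matches overlap in the windows shown here. The first is the binding motif of GATA factors, spelled AGATAA. The window held 1 match to it, on the minus strand at position -103 from the start, and 9.99% of 32851 promoter windows of this length hold it. No match was found to the AP-1 motif, spelled TGANTCA, or to the TATA box, spelled TATAAA, which 6.75% and 12.4% of windows hold. Nor did the window match the NF-kB motif, searched as GGG and CC with 5 bases of any kind between them. The last motif was the direct repeat that PPAR and RXR bind, searched as a pair of AGGTCA with 1 base between them. The direct repeat was found in 0.0335% of windows and in none of those of the 10 members, all of which have a RefSeq window. A match is a run of letters and no evidence of binding.

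Mast cells, basophils, innate lymphoid cells and T cells are the blood cells best known for ST2, and most of their markers were near 0. Of 11 mast cell markers all 11 were under 1 FPKM in both libraries and 8 were listed at 0 in both, Cpa3, Mcpt4, Fcer1a and Ms4a2 among them. Their summed level was 1.06 FPKM in the floxed and 1.07 FPKM in the deficient library, most of it Gata2 (0.6035 and 0.7001 FPKM). Of 10 markers of innate lymphoid and T cells 9 were under 1 FPKM in both, with Cd3e, Cd4 and Il7r at 0. The other, Rora, was at 0.866 FPKM in the floxed and 1.74 FPKM in the deficient library. Rora was thus higher as deposited, as Il1rl1 was, but below the median locus (relative -0.30). It passed the filter by its deficient value alone. Lower in the deficient library were Lck (0.531 and 0.171 FPKM), Il2rg (0.548 and 0.304 FPKM) and Klrg1 (0.0954 and 0 FPKM). Gata3 was higher (0.110 and 0.177 FPKM). Of 4 basophil markers Prss34, Cd200r3 and Il3ra were at 0, and Mcpt8 was at 21.5 and 4.04 FPKM, lower where Il1rl1 was higher; its part in the result was not tested. All 5 pan-leukocyte markers were under 1 FPKM in both libraries, Ptprc at 0. Of 13 mesenchymal stromal markers 10 were kept. Among them were Pdgfrb at 21.8 and 74.0 FPKM (relative 0.86) and Col1a1 at 173 and 191 FPKM (-0.72). Vcam1 was at 59.9 and 60.2 FPKM (-0.85), and Nt5e at 1.86 and 1.01 FPKM (-1.37). As deposited 3 of the 10 (30%) were higher by 2-fold or more and 0 lower, against 41.9% and 4.66% of all kept loci. Relative to the median locus 1 (10%) was higher and 1 (10%) lower, against 10.3% and 11.7%. The 3 not kept, Eng, Thy1 and Lepr, were under 1 FPKM in both libraries. Eng was at 0.0342 and 0, Thy1 at 0 and 0.419, and Lepr at 0.242 and 0.0667 FPKM.

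The second ST2 chain, Il1rap, did not follow Il1rl1. It lies on chromosome 16 from 26581791 to 26725233 (mm9). Its level was 3.50 FPKM in floxed and 2.37 FPKM in deficient cells, with a log2 fold of -0.42 (relative -1.28). The membrane transcript, which encodes the chain that signals, was at 2.52 FPKM (1.99 to 3.05) in the floxed library and 1.22 FPKM (0.849 to 1.59) in the deficient library, with bounds that do not overlap. The transcript of the soluble form was at 0.985 FPKM (0.432 to 1.54) and 1.14 FPKM (0.590 to 1.70), with bounds that overlap over most of their length. The membrane form exceeded the soluble form 2.56-fold in the floxed library and 1.07-fold in the deficient library. Transcripts of the longer membrane forms, of 640 and 685 residues, were listed at 0 in both.

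Il1r1, the signalling receptor for IL-1 itself, was low in both libraries. Its level was 1.38 FPKM in floxed and 2.68 FPKM in deficient cells, with a log2 fold of 0.63 (relative -0.23), from 10.4 and 21.1 kb of covered bases. A transcript of 12 exons that starts at 40281925 on chromosome 1 (mm9) and matched no annotated chain as a whole held all of the floxed signal, at 1.38 FPKM (1.01 to 1.75), and 0.975 FPKM (0.586 to 1.36) in the deficient library. The transcript of 11 exons from the same start, which encodes the full 576 residues, was at about 0 in the floxed library (upper bound 0.0488) and 1.26 FPKM (0.834 to 1.68) in the deficient library. The transcript of 12 exons that starts 41506 nt further on was listed at 0 and at 0.452 FPKM (0.182 to 0.721). These transcripts share most of their bases, and the split between them rests on few reads.

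Il1rl2, which encodes the IL-36 receptor, was the lowest of the 4 receptor genes among the members in the deficient library. It was at 0.629 FPKM in the floxed and 0.0612 FPKM in the deficient library, and its main transcript went from 0.537 FPKM (0.278 to 0.796) to an upper bound of 0.0560. Both values are under the 1 FPKM filter, and 3.28 and 0.224 kb of covered bases stand behind them.

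The receptor genes sit side by side on chromosome 1 in the order Il1r2, Il1r1, Il1rl2, Il1rl1, Il18r1 and Il18rap. Il18r1, which begins 137 nt after the end of Il1rl1, was at 0.0279 and 0.0672 FPKM, and its bounds reached 0 in both libraries. Il18rap, the accessory chain of the IL-18 receptor, begins 14507 nt after Il18r1 and was at 0.483 FPKM in the floxed and 3.10 FPKM in the deficient library (log2 fold 1.47, relative 0.61). Its most abundant transcript was at 0.251 FPKM (0.0477 to 0.454) and 1.25 FPKM (0.824 to 1.67). Il1r2, the decoy receptor for IL-1, was at 0.0968 FPKM and listed at 0. Beyond the cluster, Map4k4 was at 0.861 and 2.17 FPKM (relative -0.09), Mfsd9 at 0.262 and 0.616 FPKM, and Slc9a4 and Slc9a2 at 0 in both libraries. Il1rl1 thus had the highest FPKM of the 11 genes in each library, and in the deficient library by a wide margin.

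**Figure D3:**
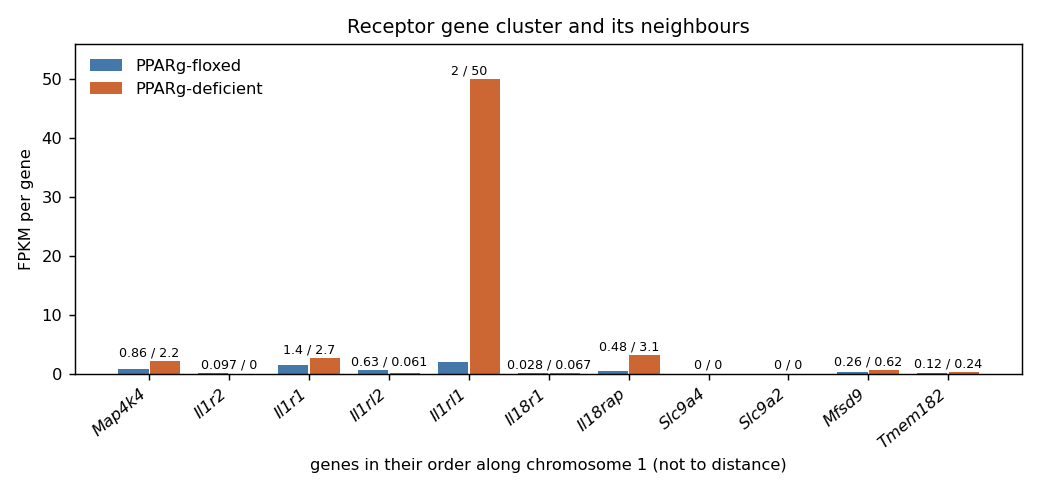
FPKM per gene in the floxed and deficient libraries for the IL-1 receptor cluster and its neighbours, in their order along chromosome 1, with both values written above the bars. Il1rl1 reaches 50.01 FPKM in the deficient library, while Il18r1, which follows it after 137 nt, stays under 0.1 FPKM in both.

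The ligand that ST2 binds was hardly expressed. Il33, on chromosome 19 from 29999604 to 30035205 (mm9), encodes a nuclear cytokine released from damaged cells. It was at 0.533 FPKM in the floxed and 0.825 FPKM in the deficient library, from 2.18 and 3.48 kb of covered bases. Its log2 fold was 0.25 as deposited and -0.60 relative to the median locus, so the sign turned with the scaling. In the floxed library the signal was assigned to a transcript of 7 exons (0.211 to 0.854 FPKM), and in the deficient library to one of 8 exons that encodes the full 266 residues (0.422 to 1.23 FPKM). These transcripts differ by 51 nt of exon sequence out of 2534 nt, so this split rests on very few reads. Il1a and Il1b, which encode the classical IL-1 ligands, were listed at 0 in both libraries with upper bounds of 0.

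Il18, the remaining ligand gene, was expressed in both libraries. It lies on chromosome 9 from 50362960 to 50389943 (mm9) and encodes a cytokine made as a precursor that caspase-1 cuts. Its level was 16.6 FPKM in floxed and 10.2 FPKM in deficient cells, with a log2 fold of -0.66 (relative -1.51). Its most abundant of 7 transcripts was at 7.87 FPKM (5.35 to 10.4) and 3.91 FPKM (2.08 to 5.73), with bounds that overlap. Of the other 6 transcripts, 3 had signal only in the floxed library (1.63 to 3.42 FPKM), 2 only in the deficient library (1.34 and 2.98 FPKM), and the last was at 1.90 and 1.96 FPKM. The inflammasome list had 4 kept genes, and 2 of them, Casp1 and Casp4, were counted as lower on both scales, where 4.66% and 11.7% of all kept loci were lower. Both passed the filter by their floxed value alone and so had to differ. Casp1, which encodes that caspase, stood at 7.20 FPKM in floxed cells and was listed at 0 in deficient cells, and Casp4 was at 2.15 FPKM and 0. Il18bp, a secreted IL-18 trap, was at 1.56 and 0.178 FPKM. A 0 in these files can be a failed estimate, so no fold is given for either caspase gene.

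Il1rn was the most abundant member in both libraries. It lies on chromosome 2 from 24192380 to 24207011 (mm9). Its level was 65.3 FPKM in floxed and 127.5 FPKM in deficient cells, with a log2 fold of 0.95 (relative 0.10), close to that of the median locus. It ranked 945 of 10722 kept loci in the floxed and 918 in the deficient library.

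The forms of Il1rn differed more than its total. The transcript from the upstream start, which encodes the intracellular form, was at 57.1 FPKM in the floxed (53.6 to 60.6) and 127.5 FPKM in the deficient library (122.6 to 132.4), 2.23-fold higher (relative log2 fold 0.29). The transcript that encodes the secreted form, from a start 8511 nt downstream, was at 5.36 FPKM (3.99 to 6.74) in the floxed library and about 0 in the deficient library, with an upper bound of 0.0939. The transcript of the form of 162 residues was at 2.83 FPKM (1.79 to 3.86) and about 0 (upper bound 0.0969). The downstream starts thus held 12.5% of the gene's FPKM in the floxed library, 8.19 FPKM in all, and next to nothing in the deficient library. Only the first exons set these transcripts apart, by 133 nt for the intracellular form, 149 nt for the secreted form and 78 nt for the form of 162 residues.

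The 250 bases before the upstream start and before the start of the secreted form are shown because the transcripts from them differed between the libraries in opposite directions. They lie at chr2:24336610-24336859 and chr2:24345121-24345370 of GRCm38.p6 on the plus strand. In both cases the RefSeq start gives a first exon of the same length as the deposited transcript, 133 and 201 nt. Capitals mark matches to the motifs listed above.
Il1rn upstream promoter (intracellular form): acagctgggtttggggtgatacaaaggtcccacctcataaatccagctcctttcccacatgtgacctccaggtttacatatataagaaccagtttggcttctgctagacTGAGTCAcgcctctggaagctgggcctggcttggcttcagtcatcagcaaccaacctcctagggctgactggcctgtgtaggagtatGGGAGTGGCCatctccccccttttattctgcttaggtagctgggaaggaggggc
Il1rn downstream promoter (secreted form): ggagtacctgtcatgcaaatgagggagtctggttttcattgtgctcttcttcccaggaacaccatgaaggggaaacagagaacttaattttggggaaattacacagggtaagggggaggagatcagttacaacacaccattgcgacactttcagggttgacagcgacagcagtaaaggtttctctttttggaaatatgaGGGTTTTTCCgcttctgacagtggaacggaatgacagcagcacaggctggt
The upstream window held TGAGTCA, a match to the AP-1 motif, at position -141, and a match to the NF-kB motif at -54. The downstream window held a match to the NF-kB motif at -51 and none to the AP-1 motif. The degenerate NF-kB motif was found in 45.8% of all promoter windows, so a match to it is common.

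Macrophages and granulocytes also make IL-1RA and IL-18, and Lyz2, a lysozyme gene of these cells, was higher in the deficient library (0.259 and 19.5 FPKM, relative log2 fold 3.17). Of 9 named macrophage and monocyte markers 7 were under 1 FPKM in both libraries and 5 were at 0 in both, among them Adgre1, Itgam and C1qa. The others were also higher in the deficient library, at low levels. Csf1r was at 0 and 0.1745 FPKM, Mrc1 at 0.0216 and 0.104 FPKM, and Cd68 at 1.56 and 2.10 FPKM (relative -0.58). The summed level of the list was 1.84 FPKM in the floxed and 21.9 FPKM in the deficient library. Of 6 named granulocyte markers 5 were under 1 FPKM in both, with S100a8 and S100a9 at 0. The other, Camp, was at 6.41 FPKM in the floxed and 6.78 FPKM in the deficient library. The part of such cells in the Il1rn and Il18 values was not tested.

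Myd88, the adaptor of all signalling members, was at 2.98 FPKM (2.10 to 3.86) in the floxed and 4.65 FPKM (3.57 to 5.73) in the deficient library, with bounds that overlap. Its log2 fold was 0.50 and its relative log2 fold -0.35. It lies on the minus strand of chromosome 9 from 119245106 to 119249158 (mm9).

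The members therefore stood in a different order in each library. In the floxed library the order was Il1rn, Il18, Il1rap, Myd88, Il1rl1, Il1r1, Il1rl2 and Il33. In the deficient library it was Il1rn, Il1rl1, Il18, Myd88, Il1r1, Il1rap, Il33 and Il1rl2. Without replicates the spread of a level is unknown. The order is by FPKM summed per gene, while bounds are given per transcript alone. Overlap of bounds, or its lack, therefore cannot decide the order. The bounds of the main transcripts overlapped for the neighbours Il1rap and Myd88, Myd88 and Il1rl1, Il1rl1 and Il1r1, and Il1rl2 and Il33 in the floxed library. In the deficient library they overlapped for Il18 and Myd88, Il1r1 and Il1rap, and Il1rap and Il33.

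The rest of the pathway was described with 118 further entries in 8 lists, of which 110 were named and 60 kept. The IL-36 genes were entered under both their newer and older symbols. They were named under the older ones alone (Il1f6, Il1f8, Il1f9 and Il1f5), so the entries outnumber the genes. As deposited, 17 of the 60 (28.3%) were higher by 2-fold or more in the deficient library and 6 (10%) lower. The shares over all kept loci were 41.9% and 4.66%. Relative to the median locus 8 (13.3%) were higher and 10 (16.7%) lower, beside 10.3% and 11.7% of all kept loci. A gene that reached 1 FPKM in 1 library only had to differ: among those named, Il18rap, Nfkbia, Fosl1 and Il6 passed through the deficient library, and Il18bp, Casp1, Casp4, Cxcl10 and Mmp13 through the floxed one. The median of the 60 kept pathway genes lay at 0.70 on the log2 scale, or -0.15 relative to the median locus.

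**Figure D4:**
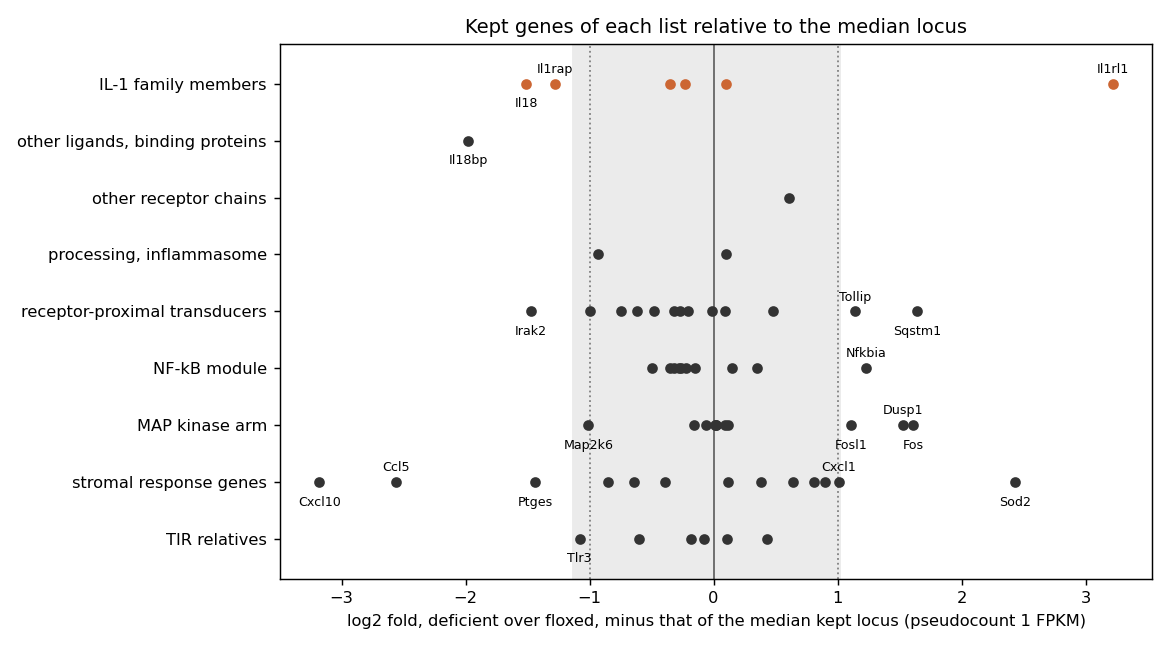
Relative log2 fold (deficient over floxed, median kept locus subtracted) of each kept gene, by list; the grey band holds the central 80% of kept loci, dotted lines mark 2-fold, and genes beyond them are named. Il1rl1 stands furthest to the right at 3.22 and Cxcl10 furthest to the left at -3.18; genes listed at 0 in a library are not drawn.

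The transducers next to the receptor were mostly close to the median locus. Of 13 kept, 2 (15.4%) were higher and 1 (7.69%) lower relative to it, where 10.3% and 11.7% of all kept loci were. As deposited 3 (23.1%) were higher and 0 lower, where 41.9% and 4.66% of all kept loci were. Sqstm1, a scaffold for TRAF6, was at 3.99 and 27.2 FPKM (relative 1.64), and Tollip, which restrains IRAK1, at 3.02 and 15.1 FPKM (1.14). Irak2, a kinase of the receptor complex, was at 17.36 and 10.99 FPKM (-1.47). Tab2, an adaptor of the kinase TAK1, was at 3.90 and 11.4 FPKM (0.48), and Irak1 at 9.79 and 11.7 FPKM (-0.62).

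In the NF-kB module 0 of 10 kept genes were lower on either scale, against 4.66% and 11.7% of all kept loci. As deposited 3 (30%) were higher, against 41.9% of all kept loci, and relative to the median locus 1 (10%), against 10.3%. The latter gene was Nfkbia, which encodes the inhibitor IkBa and is itself a target of NF-kB, at 0.481 and 5.29 FPKM (relative 1.23). It passed the filter by its deficient value alone, so it had to differ. Rela, the p65 subunit, was at 5.11 and 11.3 FPKM (0.15). The MAP kinase arm had 11 kept genes. Relative to the median locus 3 (27.3%) were higher and 1 (9.09%) lower, against 10.3% and 11.7% of all kept loci. As deposited 3 (27.3%) were higher and 0 lower, against 41.9% and 4.66% of all kept loci. Fos was at 2.10 and 16.2 FPKM (1.61), Dusp1, a phosphatase that ends MAP kinase signals, at 1.34 and 11.2 FPKM (1.53), and Fosl1 at 0.138 and 3.45 FPKM (1.11). Fosl1, like Nfkbia, passed the filter by its deficient value alone.

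Genes listed as responding to IL-1 or IL-33, not all of them in stromal cells, went both ways. Of 28 entries 14 were kept. As deposited 6 (42.9%) were higher and 3 (21.4%) lower, against 41.9% and 4.66% of all kept loci. Relative to the median locus 2 (14.3%) were higher and 4 (28.6%) lower, against 10.3% and 11.7%, so the balance turned with the scaling. Sod2, a mitochondrial superoxide dismutase gene, was at 2.04 and 28.6 FPKM (2.43), and the chemokine genes Cxcl1 at 13.1 and 50.5 FPKM (1.01) and Ccl7 at 143 and 487 FPKM (0.90). Cxcl10 was at 6.40 and 0.477 FPKM (-3.18) and Ccl5 at 16.2 and 4.26 FPKM (-2.56), chemokine genes that interferons induce as well. Mmp13, a collagenase gene, was at 5.54 FPKM and listed at 0. Il6 was at 0.468 and 1.90 FPKM (0.12), and the type 2 cytokine genes Il5 and Il13 were listed at 0 in both libraries.

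The other IL-1 family ligands were at or near 0. Il1f6, Il1f8 and Il1f10 were listed at 0 in both libraries, Il1f9 was at 0.229 and 0.131 FPKM, and Il1f5 at 0.145 FPKM and 0. Of the remaining receptor chains Sigirr was at 0.247 FPKM and 0, Il1rapl1 at 0 in both, and Il1rapl2 at 0 and 0.0464 FPKM. Among TIR relatives Cd14 was at 4.52 and 12.5 FPKM (relative 0.43). Ckap2l, the neighbour of Il1a on chromosome 2, was at 13.7 and 44.1 FPKM (0.76), beside a gene listed at 0.

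The genes whose values lay nearest to Il1rl1 were Lgals3 (1.38 and 49.6 FPKM), Rps12 (2.70 and 60.9 FPKM), Shmt2 (1.65 and 38.1 FPKM), Plpp2 (3.52 and 52.4 FPKM) and Max (1.74 and 33.4 FPKM). Likeness was the Euclidean distance over log2 of FPKM plus 1 in the 2 libraries, which ran from 0.345 for Lgals3 to 0.587 for Max. With 2 points per gene it says only that the levels were alike. Rps12 has near-identical copies in the genome and its value is uncertain.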

How the data were processed

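RNA sequencing of 2 libraries, 1 PPARg-floxed and 1 PPARg-deficient, was used. The deposited files hold FPKM per transcript, with lower and upper bounds and coverage, in a text field that Cufflinks writes, per the file headers. TopHat2 2.0.5, Cufflinks 2.0.2, Cuffdiff 2.0.2 and mm9 are named, without role or order, per the submitters' processing notes. The annotation, filters, strand handling and fragment counts are not stated in the labels or headers.

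Files hold 45543 transcripts in 25707 loci without symbols. Loci were named by matching ordered intron and internal exon lengths to GENCODE M21 on the same chromosome and strand: 17729 by a whole chain of at least 2 introns, 353 by a run of 3 lengths, 957 by 1 intron with a terminal exon. On wrong chromosomes 0 of 37034 chains matched. A total of 182 loci that matched several genes were split by transcript. Deposited coordinates were not converted. FPKM was summed per gene, and 10722 loci of at least 1 FPKM in a library and 300 nt were kept. A call is a 2-fold difference, with no test.

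Members and lists were chosen with earlier results of these data known. Named were all members, all other IL-1 family ligands and receptor chains, up to 6 genes per list of at least 5 FPKM and 2-fold different, and the 5 genes nearest to Il1rl1; others (Casp4, Il6, Irak1, Fosl1, Il5, Il13, cluster neighbours and markers) were named after their values were seen. Naming and folds were tested on simulated data. Promoter windows are RefSeq's (GRCm38.p6), and coding stretches GENCODE's; CD-1 alleles were not read. Python 3.11.15, numpy 2.4.6 and matplotlib 3.10.9 were used. Alternatives tried: adding 0.1 or 5 FPKM, filtering at 5 FPKM or not at all, TPM, upper-quartile scaling, centring, the most abundant transcript, whole chains only, folds of 1.5 and 4, and non-overlapping bounds.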

Additional observations from a re-analysis of the deposited data

How the results depend on the processing

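Il1rl1 was at least 2-fold higher under the 9 alternatives that recomputed its fold. Its log2 fold ran from 2.97 (pseudocount 5 FPKM) to 4.57 (pseudocount 0.1 FPKM). Filtering at 5 FPKM or not at all, and whole chains only, left it at 4.08. The settings of 1.5-fold, 4-fold and non-overlapping bounds changed only what counts as a call. The log2 fold of Il1rn ran from -0.11 (upper-quartile scaling) to 1.15, that of Il1r1 from -0.27 to 0.91, that of Myd88 from -0.35 to 0.62, that of Il1rap from -1.28 to -0.21 and that of Il18 from -1.65 to -0.51, so the sign for Il1rn, Il1r1 and Myd88 depended on the scaling or transcript chosen. Members at least 2-fold higher numbered 1 as reported, 2 with the most abundant transcript only (Il1rn joined) and 3 at 1.5-fold. Members lower numbered 0 as reported, 2 with upper-quartile scaling or centring and 1 at 1.5-fold.

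Of pathway genes 17 were higher as reported, 30 with a pseudocount of 0.1 FPKM, 8 with 5 FPKM, 7 with upper-quartile scaling, 8 centred, 35 at 1.5-fold and 5 at 4-fold. Lower were 6, 10 when centred and 3 at 4-fold. Of all kept loci 4495 were higher as reported, 2157 with a pseudocount of 5 FPKM, 1162 with upper-quartile scaling, 1106 centred, 7055 at 1.5-fold and 853 at 4-fold. Lower were 500, and 223 with a pseudocount of 5 FPKM, 284 at 5 FPKM or more, 1264 with upper-quartile scaling, 1259 centred, 770 at 1.5-fold and 180 at 4-fold. The cause was not tested.

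No paired analysis was possible because each group has 1 library, so leaving out a replicate was not run either. Il33 and Il1rl2 rest on 0.224 to 3.48 kb of covered bases.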

Other observations

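Ratios within a library do not depend on how the libraries are scaled. By summed FPKM Il1rn exceeded Il1r1, the receptor that IL-1RA occupies, 47.2-fold in the floxed and 47.5-fold in the deficient library, nearly the same ratio. The intracellular form, without the signal peptide, made up 87.5% and 100% of that Il1rn sum. The secreted transcript alone lay above Il1r1 in floxed cells (5.36 against 1.38 FPKM). In deficient cells it lay below Il1r1 (about 0, upper bound 0.0939, against 2.68 FPKM). As the signal was assigned to transcripts, the near-equal ratio thus holds for the summed forms and not for the secreted form. That assignment rests on the first exons, with 149 nt that only the secreted transcript holds. Il1rl1 stood at 0.576 times Il1rap in the floxed library and 21.1 times in the deficient library. Counting membrane forms alone, Il1rl1 stood at 0.0815 times Il1rap and 3.18 times. Il1rn exceeded Il1rl1 32.4-fold in the floxed library and 2.55-fold in the deficient library. These are ratios of RNA levels in 1 library each, chosen after the values were seen.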
